A study of Homo sapiens with 8 samples.

Results

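Small nucleolar RNA host genes (SNHG) and other long noncoding RNAs were examined for their presence in AGO2 complexes of A431 cells. Members were the genes whose symbols follow the SNHG series or the miRNA host series (MIR, a number or name, HG), together with the 14 genes MALAT1, NEAT1, GAS5, H19, TUG1, DANCR, CRNDE, PVT1, KCNQ1OT1, EPB41L4A-AS1, OIP5-AS1, ZFAS1, CYTOR and NORAD. Of 119 such symbols in the RefSeq gene table, 71 had a matched probe on the array, and 43 had a probe that the scanner software marked as well above background on all 4 input arrays. These 43 members were part of 13663 genes that met the same requirement, of 22439 genes with a matched probe.

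A431 is an established human cutaneous squamous cell carcinoma line. They received either a control miRNA (miR-NC) or miR-634 at 10 nM and were lysed after 24 h, and RNA was recovered with anti-AGO2 beads (RIP) or taken as input. Input and RIP from each kind of cell make 4 groups, with 2 one-color Agilent arrays per group. The comparison asks which RNAs were bound by AGO2 in each kind of cell and how that changed with miR-634. The labels of the input arrays name a normal rabbit IgG antibody, whereas the methods call these samples total RNA, and they are treated here as input. The methods state that experiments were done in duplicate but not whether a duplicate was a separate transfection, so p-values measure only the spread between these arrays, which may be technical. The 8 arrays shared 1 slide and 1 scan. Row 1 held input and row 2 held RIP, while miR-NC took columns 1 and 2, and columns 3 and 4 held miR-634. Position on the slide and group therefore cannot be told apart.

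As background, AGO2 holds a miRNA and pairs its seed with sites in other RNAs, mostly in the cytoplasm. Small nucleolar RNA hosts carry these guide RNAs in their introns, while their spliced exons are exported, and several are read by ribosomes and removed by nonsense-mediated decay. MALAT1 stays in nuclear speckles and NEAT1 builds paraspeckles, whereas NORAD, H19 and CYTOR act largely in the cytoplasm.

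The mature sequences below are those of the transfected miRNA and of miRNAs made from 4 host RNAs among the members, with the seed, bases 2 to 8, in capitals. They were taken from RefSeq on GRCh38.p14. The miR-634 gene lies at chr17:66787132-66787153 on the plus strand. H19 carries miR-675 at chr11:1996800-1996822 (5p) and chr11:1996768-1996787 (3p), and MIR23AHG carries miR-23a-3p at chr19:13836595-13836615, miR-27a-3p at chr19:13836447-13836467 and miR-24-3p at chr19:13836289-13836310. MIR22HG carries miR-22-3p at chr17:1713914-1713935 and MIR31HG carries miR-31-5p at chr9:21512158-21512178, and all of these host-derived miRNAs are on the minus strand. No seed was shared among the 8 miRNAs.
miR-634: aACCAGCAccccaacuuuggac
miR-675-5p: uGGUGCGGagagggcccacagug
miR-675-3p: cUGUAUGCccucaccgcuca
miR-23a-3p: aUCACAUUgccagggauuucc
miR-27a-3p: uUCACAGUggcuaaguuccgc
miR-24-3p: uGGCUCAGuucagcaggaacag
miR-22-3p: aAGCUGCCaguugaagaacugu
miR-31-5p: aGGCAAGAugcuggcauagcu

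The first 20 bases of the annotated RNA are shown for 4 small nucleolar RNA hosts, because many hosts, like ribosomal protein mRNAs, are known for a 5′ terminal oligopyrimidine (TOP) start. Capitals mark an unbroken run of C and T from the first base, where the first base was C and the next 4 were C or T. Such a start was found in 5 of 20 hosts with a RefSeq start sequence (25%), against 57 of 79 listed TOP mRNAs (72.2%), 0 of 11 miRNA hosts, 0 of 6 other members and 5.14% of all 27305 genes in the table. SNHG12 starts at chr1:28581854-28581873 on the minus strand, SNHG5 at chr6:85678714-85678733 on the minus strand, ZFAS1 at chr20:49278642-49278661 on the plus strand and DANCR, which lacked such a start in this table, at chr4:52712394-52712413 on the plus strand (GRCh38.p14).
SNHG12: CCTTTCTCCCCgccgcattc
SNHG5: CTTTTacgtcggccttcgcg
ZFAS1: CTTTCgcgtctgcggtgccc
DANCR: gcccttgcccagagtcttcc

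A level below is the log2 intensity of the gene's brightest probe minus the 75th percentile of the array, taken over probes well above background on all 8 arrays. RIP/input is the difference of the RIP and input levels within 1 kind of cell, and its change is obtained by subtracting the miR-NC value from the miR-634 value. Each was tested with limma over all 13663 genes, and a gene was called where the Benjamini-Hochberg adjusted p was under 0.05. Over all tested genes the median RIP/input was -0.20 in miR-NC cells, against -0.23 in miR-634 cells, and the median change was -0.18. The median SD between arrays of a group was 0.04 for miR-NC input, 0.08 for miR-NC RIP, 0.05 for miR-634 input and 0.07 for miR-634 RIP (n = 2 arrays each). Precision is limited by how many arrays there are.

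Of the 43 members, 36 were well above background on all 8 arrays. The probe that stood for MIR17HG, MIR4453HG or SNHG4 was not well above background on any RIP array, and those of MIR3681HG and SNHG33 were not on either miR-NC RIP array. For these only a bound holds, taken between the mean of the brighter group and, per array, the higher of the lowest signal well above background and the probe's own. For SNHG33 the bound put input at least 1.37-fold above RIP in miR-NC cells, and for MIR17HG at least 1.74-fold in miR-634 cells. The limma adjusted p-values there (7.46e-05 and 0.00292, in that order) belong to fits on the dim RIP signals and do not test the bounds. A further MIR17HG probe, well above background on both miR-634 RIP arrays, had a RIP/input of 0.38 there, the other direction. The remaining bounds were below 1, so that no fold is given for MIR3681HG, MIR4453HG, SNHG4 or MIR17HG in miR-NC cells. MIR100HG and SNHG21 were well above background on 1 of 2 miR-NC RIP arrays.

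In miR-NC cells, 11 of 43 members were called higher in RIP than in input and 24 were called lower. Over all tested genes, 27.5% were called higher and 42.9% lower (70.5% either way). The members' median RIP/input was -0.37, and 27 of 43 lay below the median gene. In miR-634 cells, again 11 were called higher and 24 lower, where 31.5% of all tested genes were called higher and 45.9% lower (77.5% either way). Their median was -0.51, with 25 of 43 below the median gene. Among the 36 members above background on all 8 arrays, 11 were called higher and 20 lower in each kind of cell. These counts were the same in a fit of the 10959 genes that met that filter. Of those genes, 33.5% were called higher and 45.3% lower in miR-NC cells, and 36.1% and 48.3% in miR-634 cells. With spike-in scaling the counts were 1 higher and 41 lower in miR-NC cells, then 3 higher and 34 lower after miR-634. Of all tested genes, 0.395% were called higher and 98.2% lower in miR-NC cells under that scaling, and 4.85% and 84.4% after miR-634. Called directions in both kinds of cells were higher for 8 members and lower for 18, while 3 went from lower in miR-NC cells to higher in miR-634 cells and 2 went the other way. The shares of all tested genes with these pairs of calls were not computed, so these counts describe the members only.

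**Figure D1:**
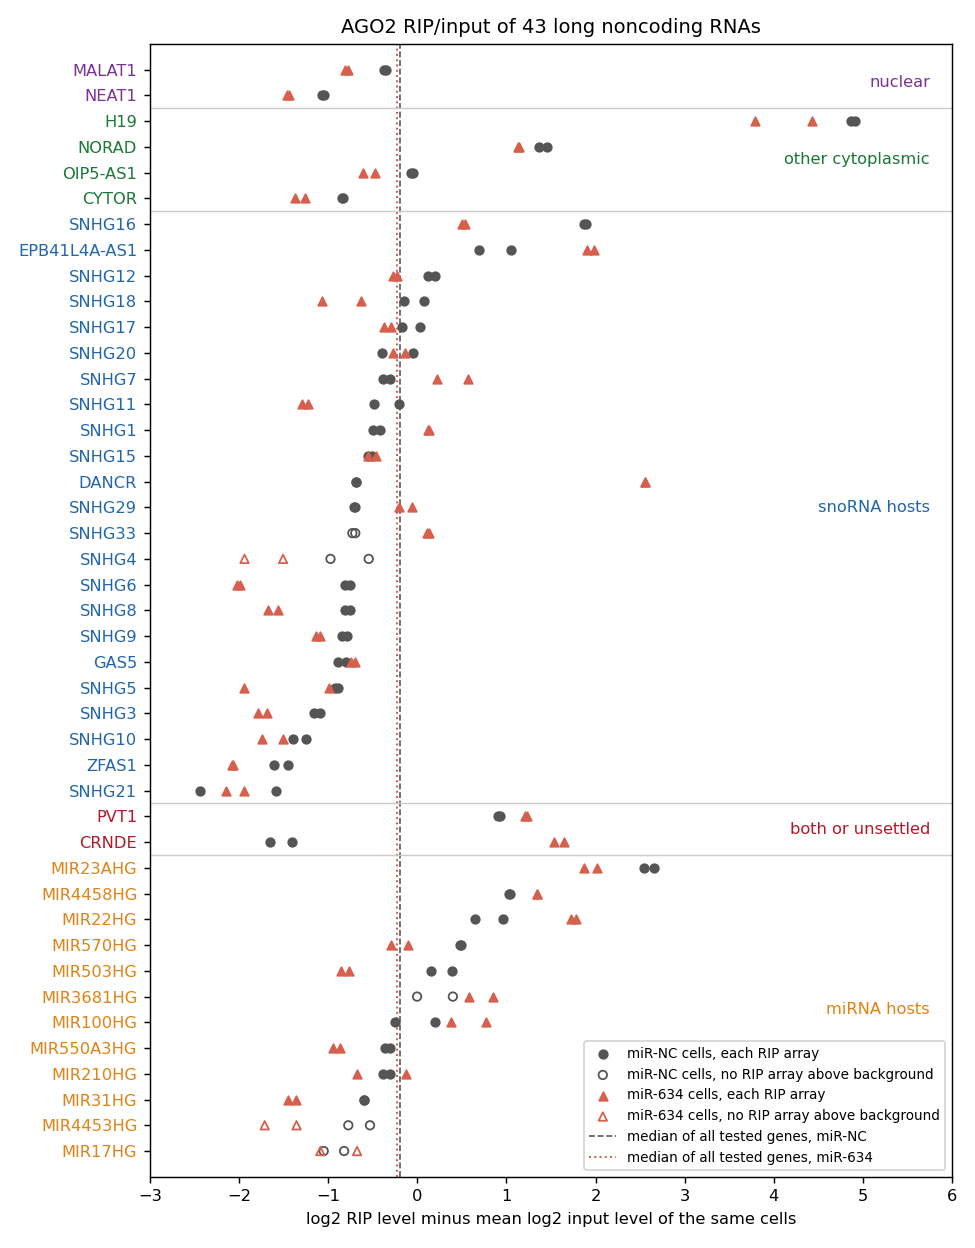
The plot gives log2 RIP/input of each RIP array (level minus the mean input level of the same cells) for the 43 members, in groups, with circles for miR-NC cells, triangles for miR-634 cells, open symbols where no RIP array was well above background, and the medians of all tested genes (-0.20 and -0.23) as vertical lines. H19 lies far to the right in both kinds of cells, MALAT1 and NEAT1 lie to the left of the lines, and DANCR and CRNDE lie left of them in miR-NC cells and right of them in miR-634 cells.

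MALAT1 and NEAT1, the nuclear members, were both lower in RIP than in input. KCNQ1OT1, also nuclear and with a matched probe, was not well above background on the 4 input arrays, and SNHG14 and TUG1 had no probe whose accession is in the RefSeq gene table, so that probes under other accessions may have been missed. MALAT1, a nuclear speckle RNA that is linked to splicing factors, had levels of -0.04 and -0.07 on miR-NC input arrays, -0.43 and -0.41 on miR-NC RIP arrays, 0.25 and 0.46 on miR-634 input arrays and -0.46 and -0.42 on miR-634 RIP arrays. The input arrays of both kinds of cells lay above the RIP arrays without overlap, and the miR-634 input arrays were the highest. RIP/input of MALAT1 was -0.37 (SE 0.08, limma adjusted p = 0.00651) in miR-NC cells, against -0.80 (adjusted p = 0.000184) in miR-634 cells. The change of -0.43 (SE 0.11, adjusted p = 0.0167) came with a higher input level (0.41, SE 0.08, adjusted p = 0.0249) and a RIP change of -0.02 (adjusted p = 0.802). Without the second miR-NC input array the change of MALAT1 was -0.41 and no longer called, and the input change was not called without any 1 of 3 input arrays (values there between 0.30 and 0.42). The input call was also lost with the mean of the probes (0.21) and with spike-in scaling (0.18). The other MALAT1 probes above background on all arrays gave RIP/input of -1.03 and -1.25 in miR-NC cells, and the latter had an input change of -0.03 and a RIP change of -0.41, so that which of input and RIP moved differed between probes.

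NEAT1, the scaffold of paraspeckles, had levels of 2.29 and 2.36 on miR-NC input arrays and 2.38 and 2.29 on miR-634 input arrays, so that the input groups overlapped. On the RIP arrays it had 1.26 and 1.28 in miR-NC cells and 0.87 and 0.89 in miR-634 cells. All 4 RIP arrays lay below all 4 input arrays, and the miR-634 RIP arrays were the lowest. Input exceeded RIP 2.07-fold in miR-NC cells (log2 RIP/input -1.05, SE 0.05, limma adjusted p = 2.85e-05), against 2.73-fold in miR-634 cells (-1.45, adjusted p = 4.82e-06). The change was -0.40 (SE 0.08, adjusted p = 0.00612). The other NEAT1 probes gave RIP/input of -0.37 and -0.0055 in miR-NC cells and -0.21 and -0.14 after miR-634. When probes were averaged, the change of NEAT1 was -0.12 and not called. The fall of RIP/input in MALAT1 and NEAT1 also depends on the scaling: with the percentile over all probes neither was called (-0.31 and -0.28), and with spike-in probes, which moved the median change of all tested genes from -0.18 to 0.92, the values turned to 0.66 and 0.69. Relative to the median gene, the changes were -0.25 for MALAT1 and -0.22 for NEAT1.

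Set against the cytoplasmic members (small nucleolar RNA hosts and the 4 RNAs NORAD, OIP5-AS1, H19 and CYTOR), the nuclear pair was compared by medians of the brightest probes. In miR-NC cells the median RIP/input was -0.71 for the 2 nuclear members and -0.69 for the 27 cytoplasmic members, a difference of -0.02, which was -0.27 with normexp, -0.21 with the filter on all 8 arrays and -0.16 without the second miR-NC RIP array. In miR-634 cells these medians were -1.12 and -0.55, a difference of -0.58 (-0.39 with the mean of the probes). The median change was -0.41 for the nuclear and -0.30 for the cytoplasmic members, but the nuclear median was the higher with the mean of the probes (-0.23 and -0.32), without the first miR-NC RIP array (-0.42 and -0.45) and without the first miR-634 RIP array (-0.40 and -0.42). The classes were assigned by gene name, and where these RNAs lie in these cells was not measured. No test was made of these differences. Over the 2 RIP arrays of a group the difference had an SD of 0.10 in miR-NC cells, against 0.06 in miR-634 cells. Of the 27 cytoplasmic members, 5 were called higher and 18 lower in miR-NC cells, where 27.5% and 42.9% of all tested genes were. After miR-634, 6 were called higher and 17 lower, where 31.5% and 45.9% of all tested genes were. With spike-in scaling these counts were 1 and 26, then 2 and 23, where nearly all tested genes were called lower (98.2%, then 84.4%). The nuclear class holds 2 RNAs, and cytoplasmic RNAs lay on both sides of them in each kind of cell.

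H19, the imprinted RNA that carries miR-675, had the highest RIP/input of all members in both kinds of cells. Its levels were 0.79 and 0.82 on miR-NC input arrays, 5.68 and 5.72 on miR-NC RIP arrays, 0.62 and 0.69 on miR-634 input arrays and 4.45 and 5.09 on miR-634 RIP arrays. Every RIP array stood above every input array, and the miR-634 RIP arrays were below the miR-NC RIP arrays and farther apart from each other. RIP exceeded input 29.6-fold in miR-NC cells (log2 4.89, SE 0.20, limma adjusted p = 1.48e-05), which ranked 2 of 13663 genes, and 17.3-fold in miR-634 cells (log2 4.11, adjusted p = 1.16e-05), which ranked 10. The change of -0.78 (SE 0.28, adjusted p = 0.0564) did not pass the test, but was called with the filter on all 8 arrays and with the mean of the probes (-0.60). It turned to 0.31, not called, with spike-in scaling. The miR-634 RIP arrays had an SD of 0.45, and the change was -1.10 or -0.46 depending on which of them was left out. Such a fit no longer holds their disagreement, so its call is not counted. Meanwhile the RIP level itself was lower in miR-634 cells (-0.93, adjusted p = 0.0077), a call that was lost with spike-in scaling (-0.0638). A further H19 probe gave RIP/input of 4.76 and 4.35. With spike-in scaling RIP/input of H19 was smaller, 2.32 in miR-NC cells and 2.64 after miR-634, and still called higher.

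Among the other cytoplasmic RNAs, NORAD, which binds Pumilio proteins, had RIP/input of 1.41 in miR-NC cells, against 1.14 in miR-634 cells. Both values were called higher, and with spike-in scaling both turned negative (-1.16 and -0.33). CYTOR had -0.84 and -1.31 and was called lower in both. OIP5-AS1 had -0.06 in miR-NC cells, where it was not called, and -0.55 in miR-634 cells, where it was. The changes of these 3 were -0.27, -0.47 and -0.49, in that order, and all 3 were called lower, but turned to 0.82, 0.62 and 0.60 with spike-in scaling. The change of NORAD was not called without any 1 of 6 arrays (values there between -0.28 and -0.20), nor with the replicate block, normexp, quantile normalization, median scaling, no filter or the mean of the probes. With the percentile over all probes neither NORAD nor OIP5-AS1 was called for the change.

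For small nucleolar RNA hosts the share called lower in RIP than in input exceeded that of all tested genes. Of 23 hosts, 17 were called lower and 3 higher in miR-NC cells, with a median of -0.71, and 15 were called lower and 4 higher in miR-634 cells, with a median of -0.72. With normexp these medians were -0.43 and -0.44, where those of all tested genes were -0.14 and -0.12. Over all tested genes, 42.9% were called lower and 27.5% higher in miR-NC cells, and after miR-634 these shares were 45.9% and 31.5%. Below the median gene, whatever shift is applied to a whole array, lay 18 hosts in miR-NC cells but 15 after miR-634. With spike-in scaling, 23 hosts were called lower and 0 higher in miR-NC cells, and 21 lower and 1 higher after miR-634, where 98.2% and then 84.4% of all tested genes were called lower. Called lower in both kinds of cells were GAS5, SNHG3, SNHG5, SNHG6, SNHG8, SNHG9, SNHG10, SNHG11, SNHG15, SNHG21 and ZFAS1. With the mean of the probes, SNHG11 turned to 1.05 in miR-634 cells and was not called in miR-NC cells (-0.17), nor was SNHG15 there (-0.27). The miR-NC calls also ended without any 1 of 3 arrays for SNHG11 (-0.39 to -0.20) and without any 1 of 6 for SNHG5 (-0.93 to -0.88). The counts of hosts called lower also hold SNHG4, and in miR-NC cells SNHG33, by their fitted values, although no array of the RIP group was well above background and the bound for SNHG4 allows no fold. Leaving aside SNHG21, with 1 of 2 miR-NC RIP arrays above background, the listed hosts ran from -1.52 to -0.35 in miR-NC cells and from -2.07 to -0.51 in miR-634 cells. SNHG1 (-0.46 and 0.12), SNHG29 (-0.71 and -0.13) and, by its fitted value, SNHG33 were called lower in miR-NC cells and not called in miR-634 cells. SNHG17 (-0.07 and -0.33) and SNHG18 (-0.03 and -0.85) were called lower in miR-634 cells and not called in miR-NC cells. The call of SNHG17 was lost with the percentile over all probes (-0.22) and with the mean of the probes (-0.16). GAS5, a growth arrest RNA whose translation leads to its decay, had -0.84 in miR-NC cells, against -0.72 in miR-634 cells, with a change of 0.12 (SE 0.07, limma adjusted p = 0.216). SNHG20 was called in neither (-0.22 and -0.21).

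ZFAS1, a host with a TOP start, had levels of 3.04 and 3.01 on miR-NC input arrays and 2.77 and 2.80 on miR-634 input arrays. On the RIP arrays its levels were 1.58 and 1.42 in miR-NC cells and 0.70 and 0.71 in miR-634 cells. The 4 groups did not overlap, and RIP was lower than input in both kinds of cells. Input exceeded RIP 2.88-fold in miR-NC cells (log2 RIP/input -1.52, SE 0.06, limma adjusted p = 1.55e-05), against 4.21-fold in miR-634 cells (-2.07, adjusted p = 2.73e-06). Its change was -0.55 (adjusted p = 0.00313), and 0.54 with spike-in scaling. Of the other hosts with a TOP start, SNHG5 had RIP/input of -0.90 and -1.47, SNHG12 0.16 (-2.41 with spike-in scaling) and -0.25, and SNHG18 -0.03 and -0.85, while SNHG4 was not well above background on any RIP array.

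SNHG6 had levels of 2.13 and 2.12 on miR-NC input arrays, 1.31 and 1.37 on miR-NC RIP arrays, 2.08 and 2.08 on miR-634 input arrays and 0.10 and 0.05 on miR-634 RIP arrays. The input arrays of both kinds of cells lay close together, whereas the RIP arrays fell into separate pairs with miR-634 lowest. Input exceeded RIP 1.72-fold in miR-NC cells (log2 RIP/input -0.78, SE 0.04, limma adjusted p = 4.01e-05), against 4.02-fold in miR-634 cells (-2.01, adjusted p = 1.4e-06). RIP/input was thus 2.33-fold lower in miR-634 cells (-1.22, SE 0.06, adjusted p = 4.74e-05), with an input change of -0.04 (adjusted p = 0.584). With spike-in scaling the change was -0.13 and was not called.

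SNHG21 was low in RIP in both kinds of cells. Its levels were -3.18 and -2.99 on miR-NC input arrays, -5.53 and -4.67 on miR-NC RIP arrays, -3.20 and -3.27 on miR-634 input arrays and -5.18 and -5.38 on miR-634 RIP arrays. The RIP arrays all lay below the input arrays, and the miR-634 RIP values fell between those of miR-NC RIP, of which 1 was not well above background. RIP/input was -2.02 (SE 0.27, limma adjusted p = 0.0011) in miR-NC cells, against -2.04 (adjusted p = 0.000828) in miR-634 cells, with a change of -0.03 (adjusted p = 0.954). The miR-NC value rests partly on the dim array (-2.44 and -1.59 by RIP array), so that value and the change are not exact.

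SNHG16 was the host with the highest RIP/input in miR-NC cells, and it had the largest called fall of RIP/input of all members. Its levels were 1.62 and 1.57 on miR-NC input arrays, 3.49 and 3.46 on miR-NC RIP arrays, 2.36 and 2.41 on miR-634 input arrays and 2.92 and 2.88 on miR-634 RIP arrays. Input was higher and RIP lower in miR-634 cells than in miR-NC cells, with no overlap of groups. RIP exceeded input 3.68-fold in miR-NC cells (log2 1.88, SE 0.05, limma adjusted p = 4.46e-06), against 1.43-fold in miR-634 cells (0.52, adjusted p = 0.000138). RIP/input fell 2.57-fold (-1.36, SE 0.06, adjusted p = 3.54e-05). The input level was 1.73-fold higher in miR-634 cells (0.79, adjusted p = 0.00166), the largest called rise of input among the members, ranking 49 of 13663 genes, but with spike-in scaling it was 0.56 and not called. With spike-in scaling RIP/input of SNHG16 turned to -0.69 and -0.96 and its change was -0.27, which was not called. It had 1 matched probe.

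EPB41L4A-AS1, an antisense RNA that hosts a small nucleolar RNA, was higher in RIP than in input in both kinds of cells. Its levels were 0.71 and 0.55 on miR-NC input arrays, 1.32 and 1.68 on miR-NC RIP arrays, 0.46 and 0.51 on miR-634 input arrays and 2.47 and 2.40 on miR-634 RIP arrays. The RIP groups did not overlap with each other or with input, and miR-634 RIP was highest. RIP exceeded input 1.83-fold in miR-NC cells (log2 0.87, SE 0.13, limma adjusted p = 0.00159), against 3.85-fold in miR-634 cells (1.94, adjusted p = 3.95e-05), a 2.11-fold rise (1.07, SE 0.18, adjusted p = 0.00379). The input change was -0.14 (adjusted p = 0.539). With spike-in scaling RIP/input of EPB41L4A-AS1 turned to -1.70 in miR-NC cells and was 0.47 and not called after miR-634.

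DANCR, a host known for keeping progenitor cells undifferentiated, went from lower to higher RIP/input. Its levels were 1.59 and 1.56 on miR-NC input arrays, 0.88 and 0.89 on miR-NC RIP arrays, 0.80 and 0.81 on miR-634 input arrays and 3.36 and 3.36 on miR-634 RIP arrays. The miR-634 RIP arrays stood far above all others, while the miR-634 input arrays were the lowest. Input exceeded RIP 1.61-fold in miR-NC cells (log2 RIP/input -0.69, SE 0.04, limma adjusted p = 4.5e-05), and RIP exceeded input 5.87-fold in miR-634 cells (2.55, adjusted p = 8.94e-07). The change was 9.44-fold (3.24, SE 0.06, adjusted p = 6.16e-06), which ranked 64 of 13663 genes. Meanwhile the input level was 1.70-fold lower in miR-634 cells (-0.76, adjusted p = 0.00142), the largest called fall of input among the members. Relative to the median gene the change was 3.42. The folds of DANCR depend on the scaling, since spike-in scaling moved the median RIP/input of all tested genes from -0.23 to -1.70 in miR-634 cells. It moved their median change from -0.18 to 0.92. A further DANCR probe gave a change of 3.12, but RIP/input of 0.19 in miR-NC cells, and with the mean of both probes the value there (-0.25) was not called.

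CRNDE, an RNA raised in colorectal tumors, behaved alike, and whether it acts in the nucleus or the cytoplasm is not settled. Its levels were -2.17 and -2.12 on miR-NC input arrays, -3.80 and -3.55 on miR-NC RIP arrays, -2.64 and -2.62 on miR-634 input arrays and -0.99 and -1.10 on miR-634 RIP arrays. The RIP arrays were the lowest of all in miR-NC cells and the highest of all in miR-634 cells. Input exceeded RIP 2.88-fold in miR-NC cells (log2 RIP/input -1.53, SE 0.09, limma adjusted p = 4.99e-05), and RIP exceeded input in miR-634 cells (log2 1.59, adjusted p = 2.42e-05). The change was 8.66-fold (3.11, SE 0.13, adjusted p = 2.46e-05), ranking 87 of 13663 genes, and 3.29 relative to the median gene. Input of CRNDE was reduced in miR-634 cells (-0.48, adjusted p = 0.0273), a call that was lost without any 1 of the 4 input arrays (values between -0.51 and -0.46). With spike-in scaling RIP/input in miR-634 cells was 0.11 and was not called.

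PVT1, the other member without a settled place, had RIP/input of 0.91 in miR-NC cells, against 1.22 in miR-634 cells, and its change of 0.30 was called higher. The size of this change differed between probes: the 5 above background on all arrays ran from 0.09 to 2.61. Both RIP/input values turned negative with spike-in scaling (-1.65 and -0.26), and the value in miR-NC cells did so with the mean of the probes (-0.09).

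**Figure D2:**
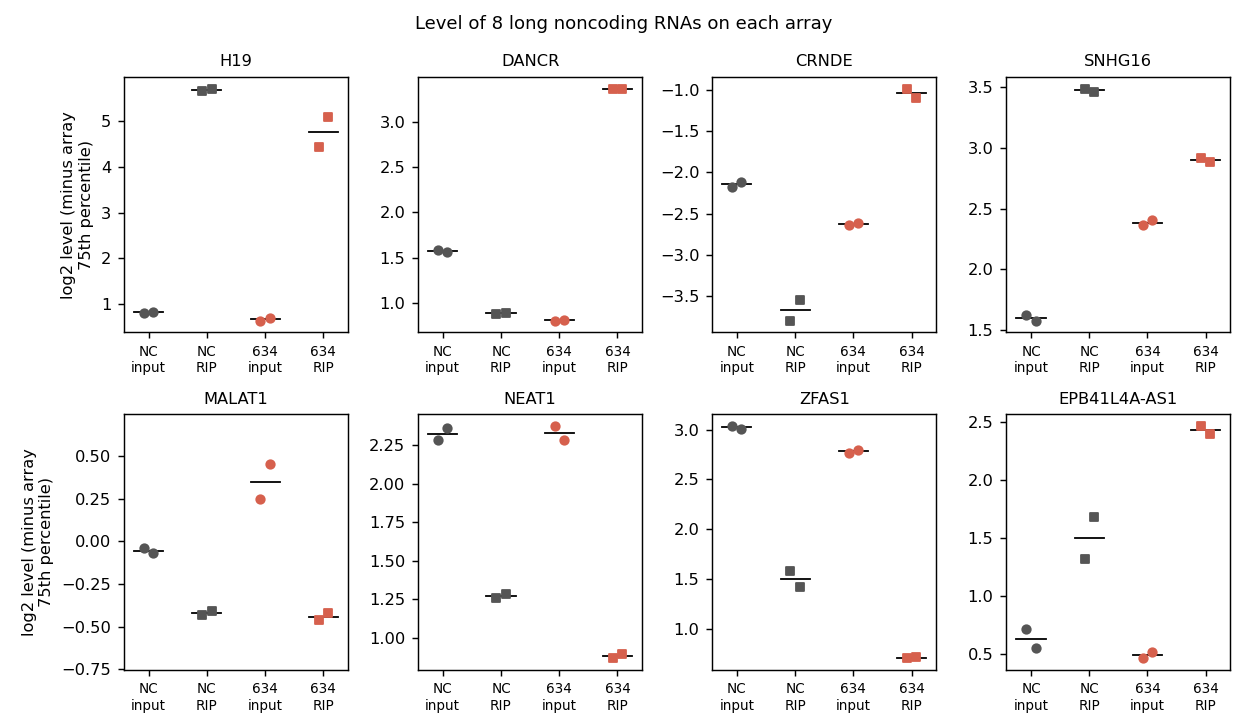
Each panel plots the log2 level of 1 RNA (log2 intensity minus the 75th percentile of the array) on the 8 arrays, with gray for miR-NC cells, red for miR-634 cells, circles for input, squares for RIP and a line at the mean of 2 arrays, and the vertical scale differs between panels. H19 rises from 0.79 and 0.82 to 5.68 and 5.72 in miR-NC cells, DANCR and CRNDE are highest on miR-634 RIP arrays, and NEAT1 and ZFAS1 are lower on all RIP than on all input arrays.

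MiRNA hosts, whose transcripts are processed by DROSHA in the nucleus to release the hairpins, were spread on both sides of input. Of 12 tested, 5 were called higher and 3 lower in miR-NC cells, where 27.5% and 42.9% of all tested genes were, and 3 were called higher and 5 lower in miR-634 cells, where 31.5% and 45.9% were. Those called lower include MIR17HG, and in miR-634 cells MIR4453HG, although their brightest probes were not well above background on any RIP array. With the filter on all 8 arrays, 5 of 8 hosts were called higher and 2 lower in miR-NC cells (33.5% and 45.3% of all genes). In miR-634 cells these were 3 and 3 (36.1% and 48.3%). With spike-in scaling, which moved the median gene to -2.76 and -1.70, 98.2% and then 84.4% of all tested genes were called lower. Of the 12 hosts, 0 were then called higher and 11 lower in miR-NC cells, and 1 higher and 9 lower in miR-634 cells. MIR23AHG, from which miR-23a, miR-27a and miR-24 are released, had the highest RIP/input of these. Its levels were -1.63 and -1.57 on miR-NC input arrays, 0.94 and 1.05 on miR-NC RIP arrays, -1.66 and -1.38 on miR-634 input arrays and 0.34 and 0.49 on miR-634 RIP arrays. The input groups overlapped, and both RIP groups stood above them with miR-NC the higher. RIP exceeded input 6.05-fold in miR-NC cells (log2 2.60, SE 0.11, limma adjusted p = 1.77e-05), ranking 111 of 13663 genes, and 3.84-fold in miR-634 cells (1.94, adjusted p = 2.16e-05). The change was -0.65 (SE 0.16, adjusted p = 0.0142), a call that was lost without the first miR-NC input array (-0.63). With spike-in scaling RIP/input of MIR23AHG in miR-NC cells was 0.031 and not called, and the change turned to 0.44.

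Of the other miRNA hosts, MIR4458HG had RIP/input of 1.03 and 1.34 and MIR22HG, the host of miR-22, had 0.80 and 1.75, and all 4 values were called higher. With spike-in scaling, MIR4458HG turned to -1.53 and -0.13, and MIR22HG turned to -1.76 in miR-NC cells and was 0.28 and not called after miR-634. With the mean of the probes, neither MIR4458HG value was called (0.43 and 0.23), nor was the change of MIR22HG (0.11). MIR31HG, from which miR-31 is released, had -0.60 and -1.41, and MIR550A3HG had -0.34 and -0.91, all called lower, but MIR31HG turned to 1.11 in miR-NC cells with the mean of the probes. MIR570HG was called higher in miR-NC cells (0.49, but -2.08 with spike-in scaling and -0.37 with the mean of the probes) and had -0.20 in miR-634 cells, where it was not called. MIR100HG (-0.02 and 0.58) and MIR210HG (-0.35 and -0.40) were called in neither.

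MIR503HG had levels of -3.19 and -3.16 on miR-NC input arrays, -3.02 and -2.78 on miR-NC RIP arrays, -3.41 and -3.31 on miR-634 input arrays and -4.13 and -4.22 on miR-634 RIP arrays. The miR-634 RIP arrays stood below all others. RIP/input was 0.27 (SE 0.09, limma adjusted p = 0.0398) in miR-NC cells, against -0.81 (adjusted p = 0.000397) in miR-634 cells, and its change was -1.09 (SE 0.13, adjusted p = 0.000994). The call in miR-NC cells was lost without any 1 of 7 arrays (values there between 0.15 and 0.29), and with spike-in scaling it turned to -2.29 and the change of MIR503HG was 0.0049 and not called. With the mean of the probes the change was -0.39 and not called.

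For the change of RIP/input, 9 of 43 members were called higher and 20 lower, where 24.9% of all tested genes were called higher and 34.6% lower (59.5% either way). The members' median change was -0.30, and 25 of 43 lay below the median gene. Called higher were DANCR, CRNDE, EPB41L4A-AS1, MIR22HG (0.95), SNHG33 (not well above background on miR-NC RIP arrays), SNHG7 (0.74), SNHG1 (0.58), SNHG29 (0.57, but 0.25 and not called with the mean of the probes) and PVT1. The deepest called falls were those of SNHG16, SNHG6 and MIR503HG, followed among members above background on all arrays by SNHG11 (-0.92, but 1.21 and called higher with the mean of the probes) and SNHG8 (-0.84). This split depends on the scaling, because 22 members were called higher and 0 lower with spike-in scaling (59.9% and 1.32% of all tested genes), and 13 were called lower with the percentile over all probes. By class, 6 of 23 small nucleolar RNA hosts were called higher and 10 lower, against 13 higher and 0 lower with spike-in scaling.

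**Figure D3:**
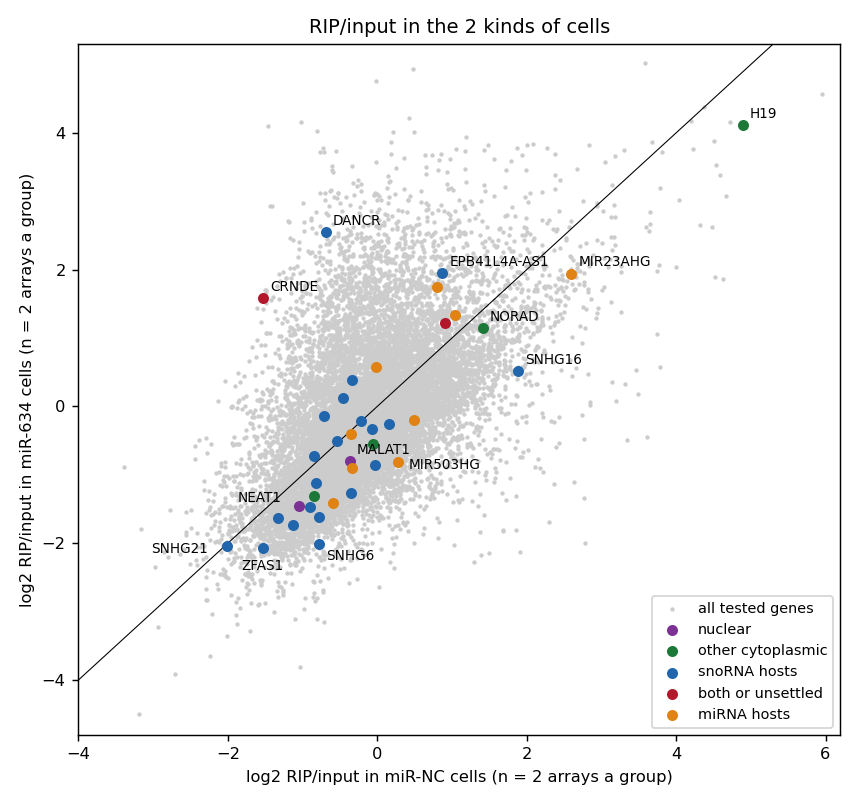
Log2 RIP/input in miR-NC cells (horizontal) is plotted against that in miR-634 cells (vertical), as means of 2 arrays a group, for all 13663 tested genes in gray and for the 38 members with at least 1 array above background in each RIP group in the colors of their class, with the line of equal values. DANCR and CRNDE lie well above the line, and SNHG16 and SNHG6 lie below it.

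For the input level, called higher in miR-634 cells were 2 of 43 (SNHG16 and MALAT1), where 6.61% of all tested genes were called higher, and called lower were 3 (DANCR, CRNDE and MIR4458HG, which had -0.48), where 7.57% were called lower (14.2% either way). The call of MIR4458HG was lost without any 1 of 5 arrays (values there between -0.50 and -0.33), and also when probes were averaged (-0.12). The count called lower was 1 with the percentile over all probes, with spike-in scaling and with the replicate block, was 8 of 36 with the filter on all 8 arrays, and ran from 1 to 4 without 1 array. The median input change was -0.07 for the members and -0.01 for all tested genes. On the RIP arrays, 9 members were called higher in miR-634 cells and 21 lower, where 28.1% of all tested genes were called higher and 39.4% lower (67.5% either way), and with spike-in scaling 21 were called higher and 0 lower (61.7% and 3.14% of all tested genes). All 9 members with a called rise of RIP/input also had a called rise on the RIP arrays, and 18 of the 20 with a called fall had a called fall on the RIP arrays. The change of RIP/input contains the RIP change, so this overlap is partly built in. Its share over all tested genes was not computed, and no conclusion is drawn from it.

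**Figure D4:**
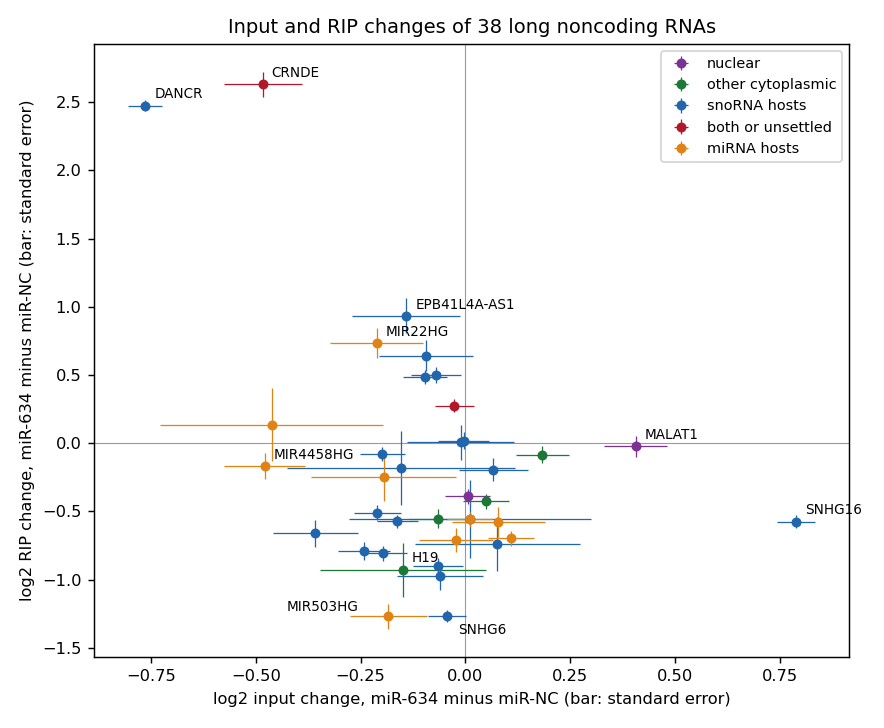
The log2 input change (horizontal) and the log2 RIP change (vertical), miR-634 minus miR-NC, are shown for the 38 members with at least 1 array above background in each RIP group, colored by class, with bars for the standard error of the fit. DANCR (-0.76 and 2.48) and CRNDE (-0.48 and 2.63) stand at the upper left, SNHG16 (0.79 and -0.58) at the lower right, and the RIP changes of most others are under 0, a direction that turns for many with spike-in scaling.

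Probes of 1 RNA did not always give the same change. Of 18 members with at least 2 probes above background on all RIP arrays, 5 had probes whose changes differed in sign: MIR22HG, NEAT1, SNHG11, SNHG15 and SNHG29. These signs hold for the percentile scaling, since spike-in scaling shifts all changes up together, and which members differ in sign depends on that shift. The brightest SNHG11 probe gave -0.92 (0.18 with spike-in scaling) and the other probes gave 1.73 and 2.82. For MIR31HG a further probe gave RIP/input of 2.81 in miR-NC cells and a change of -3.47, against -0.60 and -0.81 for the brightest. PVT1 had 5 such probes with changes from 0.09 to 2.61. By contrast, the 3 CRNDE probes lay between 3.01 and 3.19, the 3 SNHG6 probes between -1.31 and -1.22, and the 6 SNHG5 probes between -0.74 and -0.22. Which transcripts each probe matches was not analysed here.

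**Figure D5:**
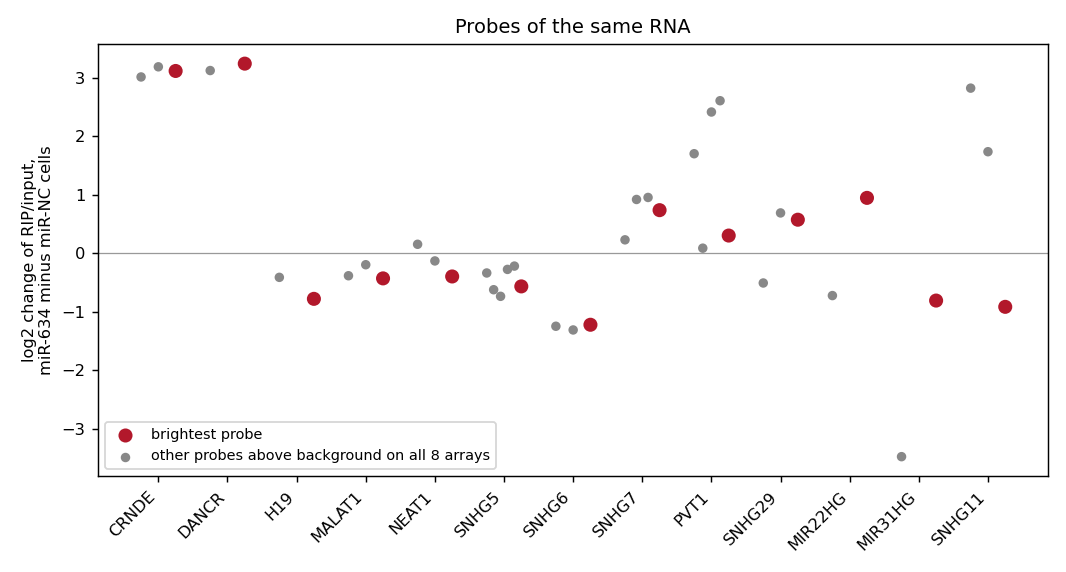
Each point is the log2 change of RIP/input (miR-634 minus miR-NC cells) of 1 probe above background on all 8 arrays, with the brightest probe of each RNA large and red and the other probes gray. The probes of CRNDE, DANCR and SNHG6 lie close together, while those of PVT1, MIR31HG and SNHG11 are spread, the latter from -0.92 to 2.82, where the lowest turns to 0.18 with spike-in scaling.

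Lists of genes tied to these RNAs were read in the same fit. For 97 tested TOP mRNAs, which encode ribosomal proteins and translation factors, 30 were called higher and 50 lower in miR-NC cells (median -0.27), where 27.5% and 42.9% of all tested genes were. In miR-634 cells 20 were called higher and 66 lower (median -0.75), where 31.5% and 45.9% of all tested genes were. Their change was called higher for 17 and lower for 56, with a median of -0.54, against -0.18 over all tested genes and -0.30 for the small nucleolar RNA hosts. With normexp the host median was -0.07, where that of all tested genes was -0.06. Without the second miR-634 RIP array the host median was -0.18. For the change, 24.9% of all tested genes were called higher and 34.6% lower. Nonsense-mediated decay factors had 7 of 18 called higher and 8 lower for the change, led by the endonuclease SMG6 (2.15). Proteins of small nucleolar particles had 5 of 13 called higher and 7 lower, with the pseudouridine synthase DKC1 highest (2.69). Of paraspeckle and speckle proteins, 3 of 11 were called higher and 2 lower, with the splicing factor SRSF2 highest (2.90), and of AGO proteins and partners, 2 of 11 were called higher and 6 lower, from -1.31 for TNRC6A to 1.59 for XPO5. Other long noncoding RNAs (antisense, divergent, intronic and LINC symbols) had 81 of 701 called higher and 229 lower for the change, with a median of -0.34. These counts hold for the percentile scaling, since spike-in scaling shifts the changes of all genes up together (median 0.92).

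The squamous origin of the cells was checked with marker genes. All 10 squamous keratinocyte markers, among them KRT5, KRT14 and EGFR, were well above background on the 4 input arrays. Of all 22439 genes with a matched probe, 13663 met this requirement. Of markers of other cell types, 1 of 5 for fibroblasts, 2 of 3 for endothelium and 2 of 4 for melanocytes met it, as did 0 of the 3 leukocyte markers and 0 of the 1 erythroid marker that had a probe. On the first miR-NC input array, these detected markers of other types had levels from -6.09 (VWF) to -4.51 (LUM). The keratinocyte markers had 1.34 (EGFR) to 5.26 (SFN) there, apart from TP63 at -4.35. Whether the detected markers of other types reflect other cells was not tested.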

How the data were processed

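The authors deposited, for each of 8 one-color Agilent arrays, the intensity of every spot from Agilent Feature Extraction (12.0.1.1 per the file headers, 9.1 in the submitters' processing notes), with local background and spatial trend removed within the array and no normalization between arrays. The authors also deposited log2 values from GeneSpring. Their scale and centering are inferred: after subtracting each probe's mean over the arrays they followed the log2 intensity on every array (r above 0.99 over 16808 probes), and their medians over all probes ran from -0.44 on an input array to 0.87 on a RIP array.

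Control and outlier spots were left out, the remaining spots were averaged by probe before taking log2. Between 45.6% and 45.8% of spots were well above background on input arrays, 33.6% and 34.5% for RIP from miR-NC cells, and 40.0% for both RIP arrays of miR-634 cells. Of 58201 probes, 28.9% passed this test on every array, and their 75th percentile was subtracted. Symbols came from the RefSeq accession of the probe (31104 of 33080 matched, GRCh38.p14 table). Probe coordinates are not given, since the design file used hg19. The brightest passing probe stood for a gene. All comparisons were contrasts of 1 fit over the 4 groups (limma 3.58.1 in R 4.3.3, lmFit and eBayes, Benjamini-Hochberg, threshold 0.05). The scripts were run on simulated data in which 200 of 13663 genes had a log2 change of RIP/input of 1. Of these, 64% were called, and 7.25% of all calls were false. In the real data 59.5% of genes were called for the change, so the simulation does not give the error rate there. Tables and plots used Python 3.11.15, pandas 2.3.3 and matplotlib 3.10.9.

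The members and lists were chosen with earlier results of these data known. Values on every array are given for the nuclear RNAs, the called members with the 3 highest and 3 lowest RIP/input in each kind of cell, the 3 largest called rises and falls of RIP/input, and the largest called rise and fall of input. The alternatives were normexp (offset 50, on median signals) with quantile normalization, quantile normalization alone, the authors' log2 values, the percentile over all probes, the median, 8 spike-in probes, a filter on all 8 arrays, no filter, the mean of the probes, a replicate block and each array left out in turn. With 1 slide and 1 scan, no slide block was fitted. MIR133A1HG, MIR137HG, MIR155HG, MIR181A1HG, MIR181A2HG, MIR202HG, MIR2052HG, MIR217HG, MIR3663HG, MIR381HG, MIR3936HG, MIR3976HG, MIR4290HG, MIR4300HG, MIR4307HG, MIR4500HG, MIR548XHG, MIR600HG, MIR646HG, MIR663AHG, MIR762HG, MIR924HG, MIR99AHG, MIRLET7BHG, SNHG22, SNHG27, SNHG31 and KCNQ1OT1 had a probe but did not pass the filter on the input arrays.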

Additional observations from a re-analysis of the deposited data

Results flagged for a closer look

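In 5 members RIP/input was called in opposite directions in the 2 kinds of cells and its change was called. The share of all tested genes that did so was not computed, so whether the members differ from other genes in this was not tested. DANCR (change 3.24) and CRNDE (change 3.11) were lower in RIP than in input in miR-NC cells and higher in miR-634 cells, and so was SNHG7 (RIP/input -0.34 and 0.39, change 0.74). MIR503HG (change -1.09) and SNHG12 (RIP/input 0.16 and -0.25, change -0.41) went the other way. The calls of SNHG7 in miR-NC cells were lost without any 1 of 6 arrays (values between -0.38 and -0.30) and in miR-634 cells without either miR-634 input array (0.39 and 0.40). Over all arrays left out in turn, the value of SNHG7 in miR-634 cells ranged from 0.22 to 0.56. For SNHG12 the call in miR-NC cells was lost without any 1 of 3 arrays (values there between 0.13 and 0.17). With the authors' values, and with the percentile over all probes, no RIP/input call of SNHG12 (0.15 and -0.14) and not its change (-0.29) was kept. The call of SNHG7 in miR-NC cells was lost with both of these (-0.35), with quantile normalization (-0.31), with median scaling (-0.29) and with the replicate block (-0.34). With spike-in scaling SNHG7 turned to -1.08 in miR-634 cells, and in miR-NC cells MIR503HG turned to -2.29 and SNHG12 to -2.41, so that none of these 3 kept opposite directions. For MIR503HG the change with the mean of the probes was -0.39 and not called, and its call in miR-NC cells was lost under several settings. For DANCR the call in miR-NC cells was lost with the mean of the probes (-0.25), and for CRNDE that in miR-634 cells with spike-in scaling (0.11). The opposite directions in DANCR and CRNDE held with each array left out.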

How the results depend on the processing

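Of 141 values reported for single members, 106 were called, and 15 of these calls were lost without at least 1 array, while none changed sign. Besides those given beside the results, they were, with the values where the call ended, SNHG17 in miR-634 cells (-0.29 with either of 2 arrays left out), and the changes of SNHG18 (-0.93 to -0.60) and SNHG9 (-0.28 to -0.25). A lone array of a group was taken to vary like the other groups. Signal over background limits the RIP values of the dimmest members.

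Spike-in scaling, which moved the median gene to -2.76 (RIP/input, miR-NC), -1.70 (RIP/input, miR-634), 0.92 (change), -0.24 (input) and 0.71 (RIP), turned the sign of 35 called values, by its construction as a shift of all genes. Changes of RIP/input turned to 0.62 for CYTOR, 0.66 for MALAT1, 0.44 for MIR23AHG, 0.28 for MIR31HG, 0.0049 for MIR503HG, 0.52 for MIR550A3HG, 0.41 for MIR570HG, 0.69 for NEAT1, 0.82 for NORAD, 0.60 for OIP5-AS1, 0.18 for SNHG11, 0.68 for SNHG12, 0.28 for SNHG18, 0.48 for SNHG3, 0.26 for SNHG8, 0.79 for SNHG9 and 0.54 for ZFAS1. RIP/input in miR-NC cells turned to -1.70 for EPB41L4A-AS1, -1.76 for MIR22HG, -1.53 for MIR4458HG, -2.29 for MIR503HG, -2.08 for MIR570HG, -1.16 for NORAD, -1.65 for PVT1, -2.41 for SNHG12 and -0.69 for SNHG16. In miR-634 cells it turned to -0.13 for MIR4458HG, -0.33 for NORAD, -0.26 for PVT1, -0.96 for SNHG16 and -1.08 for SNHG7. RIP changes turned to 0.29 for MIR23AHG, 0.47 for NEAT1, 0.29 for SNHG16 and 0.0734 for ZFAS1. Counts of called members became 1 higher and 41 lower in miR-NC cells, 3 higher and 34 lower in miR-634 cells, 22 higher and 0 lower for the change, 0 higher and 1 lower for input and 21 higher and 0 lower for RIP. For all genes these shares were 0.395% and 98.2%, 4.85% and 84.4%, 59.9% and 1.32%, 0.0878% and 3.27%, and 61.7% and 3.14%.

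With the mean of the probes, RIP/input in miR-NC cells turned to 1.11 for MIR31HG, -0.0319 for MIR503HG, -0.37 for MIR570HG and -0.0910 for PVT1, and SNHG11 turned to 1.05 in miR-634 cells, with a change of 1.21. The cause was not tested.

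With no filter on dim probes, 28 of 71 members were called higher in miR-NC cells (44.5% of all genes), 23 in miR-634 cells (40.4%), 1 higher and 1 lower for input (1.65% and 2.54%) and 34 lower for RIP (46.5%). The authors' values and the percentile over all probes each gave 13 called lower for the change (25.6% of all genes), and the latter gave 1 called lower for input. The filter on all 8 arrays gave 8 of 36 called lower for input (12.1% of all genes), where fewer genes were tested. Without 1 array, between 1 and 2 members were called higher for input and between 1 and 4 lower.

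The nuclear minus cytoplasmic difference of medians with normexp was -0.27 in miR-NC cells, against -0.81 in miR-634 cells, -0.70 in miR-634 cells with quantile normalization, -0.21 in miR-NC cells with the filter on all 8 arrays and -0.39 in miR-634 cells with the mean of the probes. Without 1 array it ranged from -0.162 to -0.0163 in miR-NC cells, while the miR-634 value ranged from -0.65 to -0.48.

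Arrays with the same replicate number did not deviate together (correlations over genes between -0.04 and 0.05). Differences between duplicates may be array noise, so this cannot tell whether the numbers pair them. With the replicate block 1 member was called lower for input, 1 call of a single member was gained and 5 were lost, those of NORAD (change), SNHG12 and SNHG7 (RIP/input, miR-NC) and CRNDE and MIR4458HG (input).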
